A study of Mus musculus with 8 samples.

Results

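The 36 genes described here belong to the hepatic stellate cell and the extracellular matrix of the liver. They comprise 13 collagen chains, other matrix proteins, enzymes and inhibitors that remodel the matrix, and markers of quiescent and activated stellate cells. They were picked by symbol, and all 36 have a row among the 27179 genes of the table. RNA was sequenced from livers of adult male C57BL/6NHsd mice that had fasted for 6 h, with 4 wild-type mice and 4 mice homozygous for V227A. V227A is an amino acid substitution in *Ppara*, the nuclear receptor that drives fatty acid oxidation in the fasted liver. The V227A line came from 1 heterozygous founder, made by base editing of zygotes and backcrossed to C57BL/6NHsd, and was bred as heterozygotes, so all mutant mice carry the same edited allele. The values used are 1 average level per gene over all 8 libraries. They hold no value for a single mouse and no spread between mice. The design asks how V227A changes gene expression in liver, a question that an average over both genotypes cannot address, so V227A was not compared with wild type here.

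Hepatic stellate cells lie between the hepatocytes and the sinusoidal endothelium. In the healthy liver they are quiescent and store vitamin A as retinyl esters. When they are activated, with TGF-beta and PDGF among the main signals, they turn into contractile myofibroblasts that secrete fibrillar collagen, which is why the same genes are read as markers of fibrosis. Other liver cells also make matrix, and hepatocytes secrete the fibronectin of plasma.

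The level of a gene is given as CPM, the reads of the gene scaled to a common library size, and wherever genes are compared it is divided by the length of the gene's merged exons in kilobases (kb). Reads per library were estimated at a mean effective library size of 27474000, which assumes a prior count of 2 in the authors' average, while CPM does not depend on it. Intervals are 95% Poisson intervals on the reads of all 8 libraries together, exact for a gene and on the log scale for a ratio, and they cover counting error only. In bulk liver, fewer cells of a type and less RNA per cell cannot be told apart, so a low level speaks of the tissue and not of any cell.

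All 36 genes had reads, as did 69.7% of all genes in the table. At least 10 reads per library were estimated for 34 of the 36 (94.4%), compared with 48.0% of all genes in the table and 68.8% of genes with reads. Read counts rise with length, and the median merged exon length was 6029.5 bases for the 36 genes and 3822.5 for genes with reads. At least 100 reads were found for 25 of the 36 (69.4%, against 34.8% of all genes) and at least 1000 for 5 (13.9%, against 11.6%), namely *Col18a1*, *Fn1*, *Dcn*, *Bgn* and *Sparc*. The 36 genes together took 2555 CPM, or 0.255% of the total. *Col18a1* and *Fn1* alone held 79.3% of their reads, and the other 34 genes shared 529.7 CPM. The median level of the 36 genes was 1.39 CPM per kb, against 1.07 for the 17956 genes with reads and a known length. Per kb of the longest transcript the medians were 1.79 and 1.40. Per kb of the longest coding region they were 2.69 for the 36 genes and 2.98 for all. In that last value, genes without a coding region entered with their median transcript length. It thus mixes units and does not settle the order by coding length. Among genes with at least 10 reads, the medians per merged kb were 1.43 for the 34 genes and 2.79 for all 12754. In the same unit the most abundant hepatocyte transcript, *Alb*, stood at 29709 CPM per kb.

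**Figure D1:**
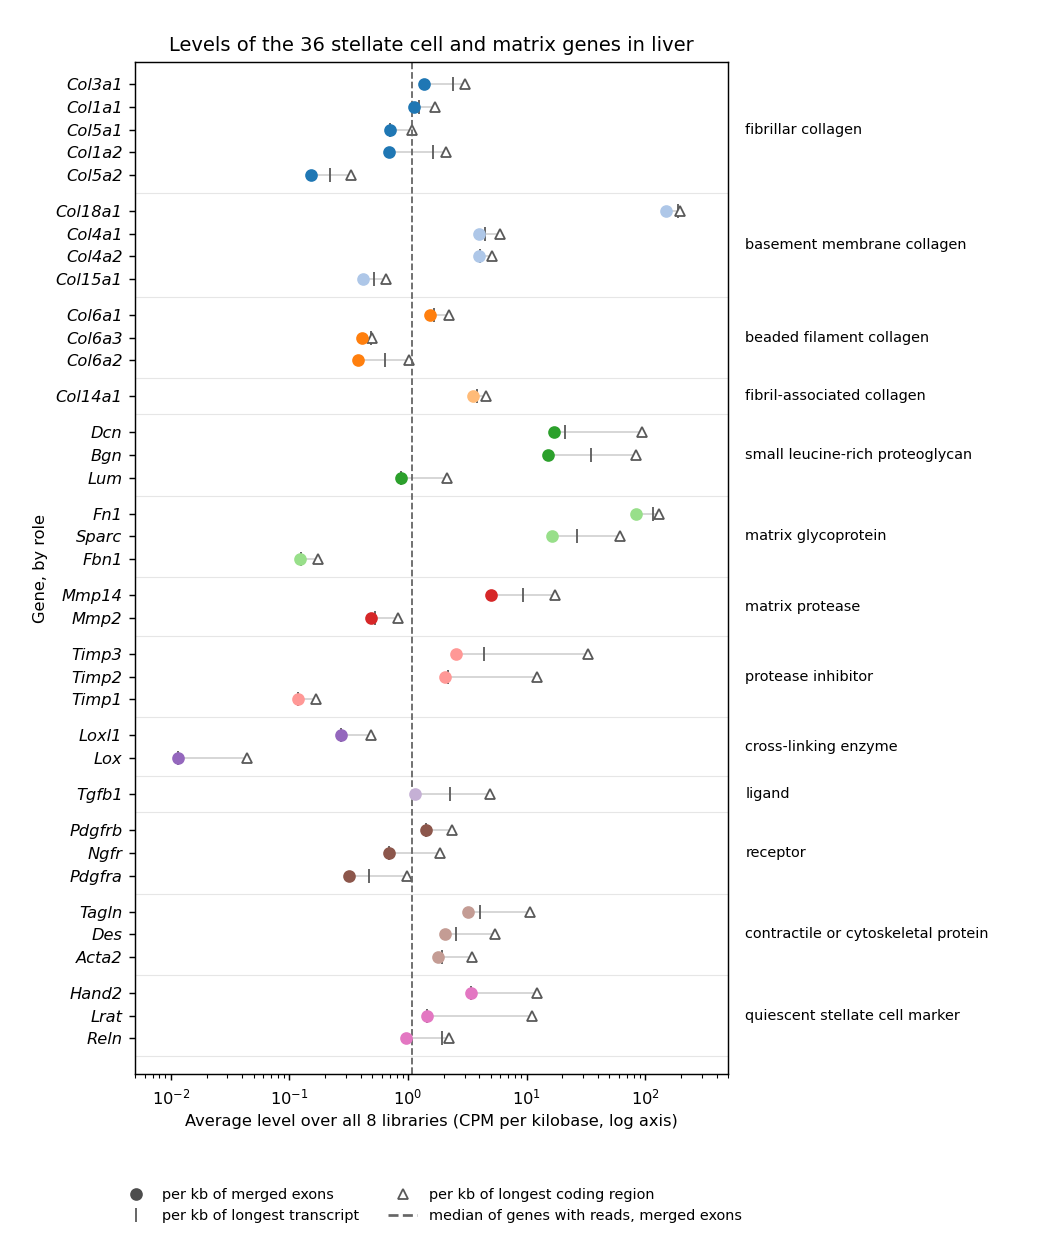
Average level over all 8 libraries (CPM per kb, log axis) of each of the 36 genes, grouped by role, with filled circles per kb of merged exons, ticks per kb of the longest transcript and open triangles per kb of the longest coding region. The dashed line is the median of all genes with reads (1.07 CPM per merged kb), and *Col18a1* (150.0) and *Fn1* (83.2) stand far to its right while *Lox* (0.0114) is the lowest.

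The fibrillar collagens form the tensile fibres of connective tissue and are the main product of activated stellate cells. All 5 chains were detected at modest levels, between 0.153 and 1.36 CPM per kb. *Col3a1*, the homotrimeric type III collagen of reticular fibres, was the highest of them at 1.36 CPM per kb and 367 reads per library. *Col1a1* and *Col1a2* encode the chains of type I collagen, which joins a pair of the first with a single copy of the second. *Col1a1* had 202 reads per library and *Col1a2* had 238. Their ratio per merged kb was 1.60 (counting interval 1.50 to 1.71), but per kb of the longest transcript it was 0.764 (0.715 to 0.817) and per coding kb 0.800 (0.749 to 0.855). The direction thus turned with the length, because the merged exons of *Col1a2* span 12426 bases and its longest transcript only 5348. *Col5a1* and *Col5a2*, chains of the type V collagen that sits inside type I fibrils, stood at 0.703 and 0.153 CPM per kb. *Col5a1* was 4.59-fold above *Col5a2* per merged kb (4.06 to 5.18), and it was also higher per kb of the longest transcript (3.20-fold) and of the coding region (3.31-fold).

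The basement membrane collagens held the highest gene of the 36. *Col18a1* encodes type XVIII collagen, a heparan sulphate proteoglycan whose C-terminal fragment is endostatin. Its average was 10.04 on the log2 CPM scale, or 28941 reads per library, and its level of 150.0 CPM per kb lay at percentile 98.1 of genes with reads. The gene lies at chr10:77052178-77166548 on the minus strand (GRCm38) and has 41 coding exons in its longest coding transcript. *Col15a1*, the closely related type XV collagen, was at 0.421 CPM per kb with 73.5 reads. *Col4a1* and *Col4a2* encode the chains of the network-forming type IV collagen and share a bidirectional promoter region. They had 817 and 720 reads per library, and 3.98 and 3.96 CPM per kb. Their ratio per merged kb was 1.01 (0.972 to 1.04), an interval that holds equality, while per coding kb it was 1.16 (1.12 to 1.20). In the annotation both genes overlap head to head by 22 bases on chromosome 8.

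The type VI collagens build beaded microfilaments around cells, from 1 copy each of 3 chains in the common form. *Col6a1* led with 1.54 CPM per kb, ahead of *Col6a3* (0.412) and *Col6a2* (0.380). *Col6a1* was 4.07-fold above *Col6a2* and 3.75-fold above *Col6a3* per merged kb, and above both with either other length. The order of *Col6a2* and *Col6a3* was not fixed: the ratio was 0.922 (0.838 to 1.01) per merged kb, 1.32 (1.20 to 1.45) per kb of the longest transcript and 2.04 (1.85 to 2.24) per coding kb. *Col14a1*, a fibril-associated collagen with interrupted triple helices, had 675 reads per library. Its 3.50 CPM per kb put it above each of the 5 fibrillar chains, with all 3 lengths.

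Collagen chains are recognised by a repeat in which glycine, encoded by GGN, fills the first of every 3 residues, since only glycine is small enough for the core of the triple helix. The coding sequences of the 13 collagen members were searched for the longest unbroken run of codon triplets that start with GGN. The 5 fibrillar chains had runs of 338 to 344 triplets, with 344 in *Col3a1*, 339 in *Col1a2* and *Col5a2*, and 338 in *Col1a1* and *Col5a1*. The runs were shorter and broken by other sequence elsewhere: 87 triplets in both *Col6a1* and *Col6a2*, 66 in *Col4a2*, 45 in *Col6a3*, 40 in *Col4a1*, 32 in *Col14a1*, and 30 in *Col15a1* and *Col18a1*. *Col18a1*, the most abundant collagen transcript here, had 30.9% of its codons in runs of 3 or more triplets, while *Col1a2* had 77.2%. The share does not separate the fibrillar chains from the others, since it was 80.2% in *Col4a1*, 75.4% in *Col4a2* and 59.4% in *Col5a1*. In the fibrillar genes many exons hold whole triplets: 44 of 51 coding exons of *Col1a1* were a multiple of 9 bases long. Exactly 54 bases were found in 21 of the 51 in *Col1a1*, 24 of 52 in *Col1a2*, 24 of 51 in *Col3a1*, 29 of 66 in *Col5a1* and 24 of 54 in *Col5a2*. Only 2 of 52 had that length in *Col4a1* and 3 of 41 in *Col18a1*. To show the repeat, a 54-base coding exon of 5 genes is printed 5′ to 3′ on the coding strand, with the GGN codon that opens each triplet in capitals.
*Col1a1*, coding exon 8, chr11:94939904-94939957, plus strand, GRCm38: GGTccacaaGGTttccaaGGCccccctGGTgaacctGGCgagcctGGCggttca
*Col1a2*, coding exon 8, chr6:4515481-4515534, plus strand, GRCm38: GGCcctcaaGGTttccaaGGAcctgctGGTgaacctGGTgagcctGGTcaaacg
*Col3a1*, coding exon 6, chr1:45325360-45325413, plus strand, GRCm38: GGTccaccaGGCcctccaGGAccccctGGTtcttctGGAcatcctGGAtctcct
*Col4a1*, coding exon 7, chr8:11245211-11245264, minus strand, GRCm38: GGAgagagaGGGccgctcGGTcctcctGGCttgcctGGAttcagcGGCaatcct
*Col18a1*, coding exon 27, chr10:77067379-77067432, minus strand, GRCm38: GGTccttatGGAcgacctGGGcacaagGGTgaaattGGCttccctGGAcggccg

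Although the collagen chains share this repeat, of the transcripts compared for the 13 collagen members only that of *Col3a1* shared a stretch of 50 bases, read in the sense direction, with a transcript of another gene. In *Col3a1* it was 1.67% of the 50-base windows of its transcript, and all of them fell in *Gm47302*, a miRNA annotated inside it.

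Among the noncollagenous matrix proteins the small leucine-rich proteoglycans bind collagen fibrils and limit their width. *Dcn*, which encodes decorin and is a usual marker of quiescent stellate cells, had 2736 reads per library and 17.1 CPM per kb. *Bgn*, the X-linked gene of biglycan, had 2551 reads and 15.2 CPM per kb. Their order turned per kb of the longest transcript, where *Bgn* reached 34.8 and *Dcn* 21.2. Per coding kb *Dcn* (93.8) was again above *Bgn* (83.9). *Lum*, which encodes lumican and lies 47.0 kb from *Dcn* on chromosome 10, had 58.8 reads per library and only 0.875 CPM per kb. The level of *Lum* was below that of *Dcn* and *Bgn* with all 3 lengths.

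Of the matrix glycoproteins, *Fn1* encodes fibronectin, which links cells to collagen through integrins. It had 26701 reads per library, an average log2 CPM of 9.92 and 83.2 CPM per kb, at percentile 97.0 of genes with reads. *Fn1* was 4.88-fold above *Dcn* per merged kb, and *Col18a1* was 8.80-fold above *Dcn*. Per coding kb the levels were closer, at 130.8 for *Fn1*, 197.9 for *Col18a1* and 93.8 for *Dcn*. *Sparc*, a collagen-binding glycoprotein also known as osteonectin, had 1693 reads and 16.3 CPM per kb. *Fbn1*, the microfibril protein fibrillin-1, stood at the other end with 41.2 reads and 0.124 CPM per kb. A predicted gene on the opposite strand, *Gm9913*, covers 20.1% of the exon bases of *Fbn1*, so part of even these reads could belong to it if strand was not used in counting.

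The matrix proteases and their inhibitors set how long the matrix lasts. *Mmp14*, a membrane-bound protease that cuts fibrillar collagen and activates the precursor of *Mmp2*, had 826 reads per library and 5.04 CPM per kb. *Mmp2*, a secreted gelatinase, had 44.9 reads and 0.485 CPM per kb. *Mmp14* was 10.4-fold above *Mmp2* per merged kb and 20.9-fold above it per coding kb. The tissue inhibitors of metalloproteinases ran in the order *Timp3*, *Timp2* and *Timp1* with all 3 lengths, at 2.54, 2.06 and 0.117 CPM per merged kb. *Timp3*, the inhibitor that stays bound to the matrix, had 568 reads per library, and *Timp2*, which is also needed for the activation of *Mmp2* by *Mmp14*, had 221. *Timp3* lies within *Syn3*, a gene of the opposite strand, and the exons of both share 1733 bases, 21.3% of those of *Timp3*, but *Syn3* had only 27.2 reads. *Timp1*, which rises in activated stellate cells, was 1 of the 2 members under 10 reads, with 2.86 per library. Over all 8 libraries that is 22.8 reads (interval 14.5 to 34.3).

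The other member under 10 reads was *Lox*, the founding lysyl oxidase, which oxidises lysines of collagen and elastin so that the fibres can cross-link. Its estimate was 1.49 reads per library and 12.0 over all 8 (6.17 to 20.9), and its 0.0114 CPM per kb was the lowest level of the 36, at percentile 11.5 of genes with reads. *Loxl1*, a relative of *Lox* needed for elastic fibres, had 24.5 reads and 0.271 CPM per kb. The estimates for *Timp1* and *Lox* thus carry the widest relative counting error of the 36.

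Among the signals, *Tgfb1* encodes the cytokine TGF-beta 1, which induces collagen genes. It had 159 reads per library and 1.14 CPM per kb. *Pdgfrb*, the PDGF receptor by which stellate cells are stimulated to divide, had 213 reads and 1.41 CPM per kb. *Pdgfra*, its relative in other fibroblasts and in stellate cells, had 87.4 reads and 0.318 CPM per kb. *Pdgfrb* was 4.45-fold above *Pdgfra* per merged kb and 2.40-fold above it per coding kb. *Ngfr*, the low-affinity neurotrophin receptor p75, lay between them per kb, at 0.697, and had 66.0 reads per library, fewer than either.

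Contractile and cytoskeletal proteins are used to follow activation. *Acta2* encodes smooth muscle alpha-actin, the classical protein of the myofibroblast, which vascular smooth muscle also carries. It had 108 reads per library and 1.79 CPM per kb. *Tagln* encodes transgelin, an actin-binding protein of the same cells, and had 177 reads and 3.24 CPM per kb. *Des*, the intermediate filament protein desmin, found in rodent stellate cells whether quiescent or active, had 211 reads and 2.05 CPM per kb. All 3 were above the median of genes with reads per merged kb, in the order *Tagln*, *Des*, *Acta2* with all 3 lengths.

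The reads of *Acta2* and *Tagln* have limits in sequence and position. *Acta2* belongs to a family of related actin genes. The longest coding stretch that it shared without a mismatch with other genes of the annotation was 56 bases, found in *Actg1* and in predicted genes or pseudogenes. It spans positions 910 to 965 of the coding region, counted from the start codon.
*Acta2*, shared with *Actg1*: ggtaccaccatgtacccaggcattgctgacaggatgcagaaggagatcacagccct
Shared 50-base windows made up only 0.352% of the *Acta2* transcript, and *Actg1* had 183 reads per library. Of the 36 members, 6 shared any such window. Beside *Col3a1* and *Acta2* these were *Ngfr* (0.824%), *Mmp14* (0.746%), *Bgn* (0.295%) and *Timp3* (0.150%). The gene that shared most with *Mmp14*, *Elovl6*, had 1514 reads per library. *Tagln* overlaps 2 genes of the opposite strand. *Pcsk7*, with 799 reads per library, shares 108 bases or 5.43% of its exons, and the antisense gene *Gm48529*, which was not analysed here, covers 62.4%. The libraries were stranded, but the strand setting of the counting was not given in the sources used here.

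*Lrat*, *Reln* and *Hand2* are further markers of quiescent stellate cells. *Lrat* encodes the acyltransferase that makes retinyl esters and thus the vitamin A store, and it had 212 reads per library. *Reln*, which encodes the secreted glycoprotein reelin, had 628 reads, and *Hand2*, a transcription factor of the stellate lineage, had 218. Per merged kb the order was *Hand2* at 3.38, *Lrat* at 1.44 and *Reln* at 0.963 CPM per kb. The exons of *Reln* merge to 23738 bases, against 11699 in its longest transcript, and per kb of the latter *Reln* (1.95) passed *Lrat* (1.44). Per coding kb *Lrat* (11.1) was again above *Reln* (2.20). A noncoding gene of the opposite strand, *Hand2os1*, covers 19.6% of the exon bases of *Hand2* and was not analysed here.

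Genes that work with the members were read from fixed lists. In the collagen synthesis and processing list 19 of 22 genes had at least 10 reads, led by *P4hb* at 525 CPM per kb, *Ppib* at 98.4 and *Mia3* at 45.5. These encode a subunit of prolyl 4-hydroxylase that is also a general disulphide isomerase, the folding enzyme cyclophilin B, and an exit factor for large cargo of the endoplasmic reticulum, all used by secretory cells beyond those that make collagen. The other cross-linking enzymes all had at least 10 reads (4 of 4), with the transglutaminase *Tgm2* at 18.6 CPM per kb and the lysyl oxidases *Loxl3* at 0.479 and *Loxl2* at 0.299. Among other matrix proteases and inhibitors 9 of 17 reached 10 reads, led by *Mmp19* at 18.6, *Mmp15* at 9.79 and *Adamts1* at 0.918 CPM per kb, and *Mmp10* had no reads. Both *Mmp19* and *Mmp15* were above *Mmp14*, per merged kb (5.04) and per coding kb alike.

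Of the other proteoglycans and glycoproteins of the matrix 18 of 23 reached 10 reads. *Vtn*, which encodes the plasma protein vitronectin made by hepatocytes, stood at 1522 CPM per kb, followed by *Ecm1* at 56.6 and the cell-surface syndecan *Sdc1* at 41.0, and *Fbn2* had no reads. Of the laminins and other basement membrane proteins 14 of 15 reached 10 reads, with agrin (*Agrn*) at 3.06, the laminin chain *Lamc1* at 1.30 and perlecan (*Hspg2*) at 1.03 CPM per kb. Per merged kb each of these was below *Col4a1*, *Col4a2* and *Col18a1*. Collagen and fibronectin receptors had 11 of 13 genes at 10 reads or more, and the integrin chains *Itgb1* (29.0), *Itgb5* (14.8) and *Itga5* (4.29 CPM per kb) led.

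For the signalling members, 19 of 22 genes of the TGF-beta pathway had at least 10 reads. The highest were the co-receptor endoglin (*Eng*) at 13.9 CPM per kb, the shared signal transducer *Smad4* at 5.94 and the repressor *Ski* at 3.53. Of the PDGF ligands 3 of 4 reached 10 reads, with *Pdgfa* at 2.18, *Pdgfc* at 0.406 and *Pdgfb* at 0.177 CPM per kb. Among neurotrophins and partners of *Ngfr* it was 4 of 8, with the sorting receptor *Sort1* at 1.66 CPM per kb, and 7 of 8 at a minimum of 1 read. The reelin pathway was sparse, with 1 of 3 genes at 10 reads and 2 of 3 at a minimum of 1 read: the receptor *Vldlr* was at 0.117, the adaptor *Dab1* at 0.0143 and the receptor *Lrp8* at 0.000437 CPM per kb. Retinoid storage and transport had 7 of 8 genes at that depth, led by the plasma carriers *Ttr* (5847) and *Rbp4* (3068) and the retinal dehydrogenase *Aldh1a1* (199.8 CPM per kb), which hepatocytes make in bulk.

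Markers of liver cell types were read from fixed lists. Their reads cannot test the label of the group, because 7 of the 14 stellate cell markers are themselves among the 36 genes. All 14 had at least 10 reads, compared with 48.0% of all genes in the table. Their summed level was 110.7 and their median 1.75 CPM per kb. The 7 markers outside the 36 summed to 83.7 CPM per kb, with a median of 3.29. Per merged kb *Ecm1* alone held 51.1% of the sum of all 14, ahead of *Colec11* (18.1 CPM per kb) and *Dcn* (17.1). That order depends on the length. Per coding kb *Dcn* (93.8) was above *Ecm1* (85.1) and *Colec11* (35.2), in a sum of 299.3. Per kb of the longest transcript *Dcn* (21.2) was above *Colec11* (18.3). The lowest was *Gfap*, the glial filament protein of rodent stellate cells, with 12.1 reads per library. The activated stellate cell or myofibroblast list had 7 of 9 genes at 10 reads, a summed level of 9.13 and a median of 0.735 CPM per kb. Its highest genes were *Tagln*, *Acta2* and *Col3a1*, and 7 of the 9 are among the 36. Its 2 genes under 10 reads were *Timp1* and *Lox*. Genes of both lists were thus read in the tissue, but whether any stellate cell was activated was not tested. Vascular smooth muscle also carries *Acta2* and *Tagln*.

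Markers of other cells that share these genes were read as well. For scale, the 2 genes of the activated list that are not among the 36 summed to 0.801 CPM per kb. Portal fibroblast markers reached 10 reads in 7 of 9 genes with a sum of 3.14 CPM per kb, of which *Entpd2* had 1.57, *Mfap4* 0.490 and *Thy1* 0.310. Vascular smooth muscle markers, 5 of 6, summed to 2.73 CPM per kb, with *Smtn* at 1.27, *Myh11* at 0.562 and *Actg2* at 0.498. At an average log2 CPM of at least 0 the count fell to 2 of 6. *Myocd*, the coactivator that defines smooth muscle, had 0.249 reads per library and was thus near 0. Mesothelial markers, 3 of 5, summed to 2.48 CPM per kb, of which 80.5% was *Krt19*, a keratin that cholangiocytes also express, and *Msln* stood at 0.198 and *Upk3b* at 0.167. The mesothelial count was 1 of 5 at an average log2 CPM of at least 0 and 5 of 5 at a minimum of 1 read. The share of *Acta2*, *Tagln* or collagen reads that came from portal or vascular cells was not tested.

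The remaining cell types give the scale. Hepatocyte markers (8 of 8) summed to 56700 CPM per kb, with *Alb* at 29709, *Apoa1* at 10760 and *Ttr* at 5847. Kupffer cell and macrophage markers (6 of 6) summed to 75.2, led by *Clec4f* (33.2), *Cd5l* (26.8) and *Vsig4* (9.82 CPM per kb). Sinusoidal and other endothelial markers (8 of 8) summed to 34.4, led by *Clec4g* (15.4), *Stab2* (5.05) and *Stab1* (4.30 CPM per kb). Every marker of these 3 lists had at least 10 reads. Cholangiocyte markers (5 of 5) summed to 18.5, with *Spp1* at 14.5, *Krt19* at 1.996 and *Sox9* at 1.17 CPM per kb. Red blood cell markers (4 of 4 in the table) summed to 184.2, with *Hbb-bs* at 101.5, *Alas2* at 54.4 and *Hba-a1* at 22.4 CPM per kb.

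Markers of lymphocytes and neutrophils had few reads. T and NK cell markers reached 10 reads in 4 of 5 genes and summed to 1.15 CPM per kb, and the highest per kb were *Trac* at 0.424, *Nkg7* at 0.355 and *Cd3g* at 0.127, of which *Nkg7* had 8.90 reads. None of the 5 reached an average log2 CPM of 0, so this count rests on the minimum of 10 reads. B cell markers did so in 2 of 4 genes and also summed to 1.15, with *Cd79b* at 0.728 and *Cd79a* at 0.210 CPM per kb. The B cell count was 1 of 4 at an average log2 CPM of at least 0 and 4 of 4 at a minimum of 1 read. Of the neutrophil markers 1 of 4 reached 10 reads, and *S100a9* (0.808), *S100a8* (0.278) and *Retnlg* (0.146 CPM per kb) led, while the defining surface protein *Ly6g* had 0.126 reads per library. The neutrophil count was 0 of 4 at an average log2 CPM of at least 0 and 3 of 4 at a minimum of 1 read. The part of these cells in the levels of the 36 genes was not tested.

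**Figure D2:**
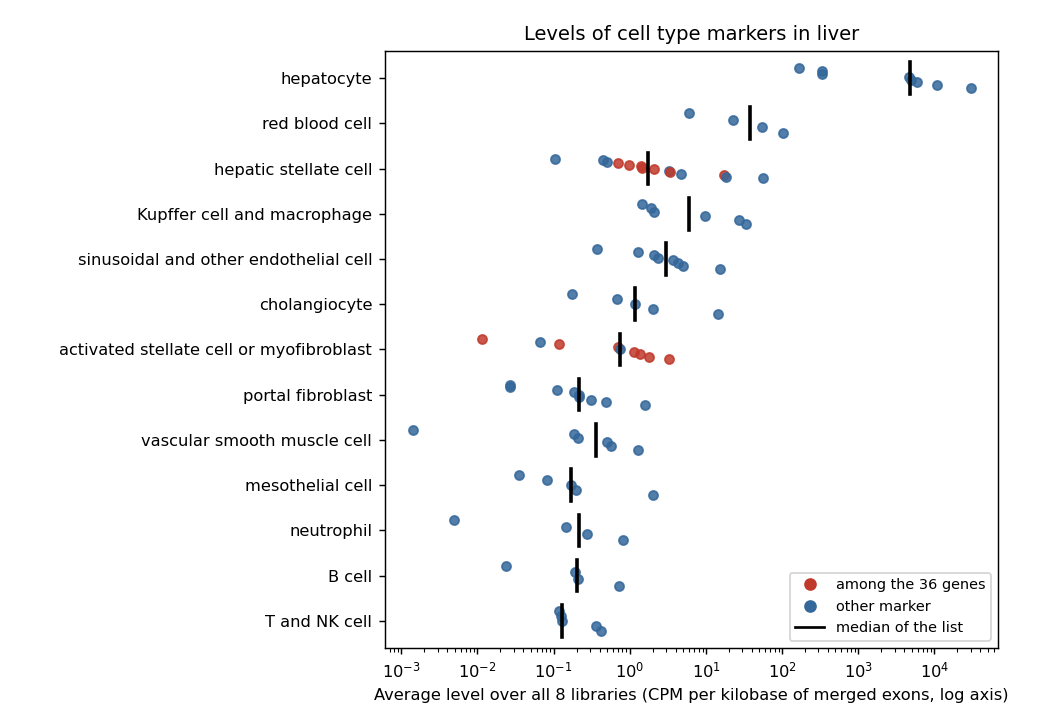
Average level over all 8 libraries (CPM per kb of merged exons, log axis) of every marker found in the table, 1 point per gene, in lists ordered by summed level, with red points for genes among the 36 and a black line at each list's median. The stellate cell list has its median at 1.75 and the activated list at 0.735, between the hepatocyte list (4774) and the T and NK cell list (0.127).

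In the genome the 36 genes lie on 16 chromosomes, and some collagen genes lie close together. *Col3a1* and *Col5a2* are 24.6 kb apart on chromosome 1 and transcribed toward each other. On chromosome 10, *Col6a2* and *Col6a1* are 85.2 kb apart and *Col18a1* follows after 326 kb, all 3 on the minus strand. *Col18a1*, at 150.0 CPM per kb, was the highest of the 36, and its neighbour *Col6a1* stood at 1.54. In the annotation 14 members overlap another gene in their exons, and counted from each member 17 of these overlaps are with a gene of the opposite strand and 2 with a gene of the same strand. Beside those already named, the overlaps take in 5.86% or less of the exon bases of the member. They concern *Col5a1* (*2810430I11Rik* and *Gm13372*), *Col4a2* (*Gm15419*), *Col15a1* (*Gm12426*), *Fn1* (*Apol7d*, 2.26 reads per library), *Lox* (*AC161119.1*), *Pdgfra* (*Gm42802*, *Gm42803* and *Mir7025*), *Des* (*Gm15179*, no reads) and *Reln* (*Gm10475*).

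Promoter windows from 250 bases before to 50 after the start were taken from a table of RefSeq promoters, in which 25 of the 36 genes were matched. GGGCGG, a GC box searched on both strands, was present in 18 of these 25 (72.0%) and in 38.2% of 27025 genes with a window. CCAAT was present in 9 of the 25 and in 41.1% of all these genes, and TATAAA in 1 of the 25, *Col3a1*, and in 15.7% of all. The median GC content was 60.7% in the 27 windows of these 25 genes and 52.7% in all windows. A match of letters is a description of the window and not a bound site.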

How the data were processed

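RNA came from 8 livers, and stranded poly-A libraries were read in pairs. Per the labels and the study's methods, the authors trimmed reads with Trimmomatic, checked them with FastQC, used STAR for alignment to GRCm38 (mm10) and featureCounts for counts per gene, and tested the genotypes in edgeR. Versions, annotation, strand setting and any filter are not given in the sources used here, nor is whether reads or pairs were counted. The deposited table has 27179 rows, 25860 of them with a symbol, and 0 columns of values per library. Its average log2 CPM, made by the authors' tool over all 8 libraries with a prior count added, is the only measurement used. The other columns hold the authors' own comparison of the genotypes (fold change, F statistic, p-value and adjusted p-value). They are the study's findings and were not used, so there is no comparison of genotypes, no test and no SD.

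The lowest average, -3.78, is shared by 8242 genes and was taken as no reads. With a prior count of 2, the default of edgeR and not stated by the authors, it gives a mean effective library size of 27474000, and each average was turned into reads per library and CPM. Estimated totals over the 8 libraries lay within 0.1 of a whole number for 99.9% of 2378 genes with 1 to 5 reads. With a prior count of 1 it was 49.1% of the genes whose totals then fell in that range, which is another set of genes. A multiple of 2 as the prior would also give whole totals, so this does not single out 2. Library sizes of single samples are unknown. Exon and coding lengths and coordinates came from GENCODE vM21 (GRCm38), with a length for 94.8% of genes with reads, and promoter windows from RefSeq. The back-calculation was tested on simulated libraries. Python 3.11.15, pandas 2.3.3, numpy 2.4.6, scipy 1.17.1 and matplotlib 3.10.9 were used.

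Named were all 36 members, the 3 highest genes per length of each other list with genes without reads, genes that overlap a member, and other collagen genes with at least 10 reads. Some genes that this rule picks are not reported here. *Gfap*, *Myocd*, *Ly6g* and *Actg1* were named after their values were seen. *Ctgf* was matched as *Ccn2*, and *Hbb-bt* had no match. The members and lists were chosen with earlier results of these data known. Alternatives covered the prior count, the gene length, the filter on low values and rows that share a symbol.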

Additional observations from a re-analysis of the deposited data

How the results depend on the processing

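The values are averages over both genotypes, so neither a spread between mice nor a difference between genotypes can be read from them. No paired analysis was possible because the table has no values per library, and leaving out a replicate was not possible for the same reason. The number of members with at least 10 reads was 34, and it stayed between 33 and 36 under the other prior count, no removal of the prior and the other filters. The summed level moved only from 2555 to 2558 CPM when the prior was not removed. The order of the members was more open to the length: 25 of 36 stayed within 2 places of their rank per kb of the longest transcript and 25 of 36 per coding kb, while all 36 did so under either other treatment of the prior. All ratios of collagen chains moved beyond their counting intervals. Per kb of the longest transcript they were 0.764 for *Col1a1* over *Col1a2*, 1.11 for *Col4a1* over *Col4a2*, 3.20 for *Col5a1* over *Col5a2*, 2.56 for *Col6a1* over *Col6a2*, 3.38 for *Col6a1* over *Col6a3* and 1.32 for *Col6a2* over *Col6a3*. Per coding kb they were 0.800, 1.16, 3.31, 2.16, 4.40 and 2.04 in the same order. The median of the members was 1.79 CPM per kb of the longest transcript and 2.69 per coding kb, a pair of alternatives chosen after seeing the data, and 1.44 for the 33 members with an average log2 CPM of at least 0. No symbol stood on more than 1 row, so summing such rows changed nothing. The prior count of 2 is an assumption that the sources do not state. With a prior count of 1 the library size is estimated anew, and all 36 estimates of reads fall by the same factor, as for *Acta2* from 49.2 to 24.6 reads per kb. With the prior left in, the estimates rose instead. In proportion the 2 members under 10 reads moved most, *Lox* from 0.313 to 0.731 and *Timp1* from 3.22 to 5.47 reads per kb. Counts of genes with at least 10 reads moved by over 1.5 times in some of the 24 lists. At an average log2 CPM of at least 0 it was 5 lists: vascular smooth muscle went from 5 to 2 genes, mesothelial from 3 to 1, T and NK cell from 4 to 0, B cell from 2 to 1 and neutrophil from 1 to 0. A minimum of 1 read moved the count up by over 1.5 times in 5 lists (neurotrophins and partners, reelin pathway, mesothelial, B cell and neutrophil), and no filter in these and in the other matrix proteases and inhibitors.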

Other observations

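The table holds 44 collagen genes, and 31 of them are outside the 36. Of these, 9 had at least 10 reads per library, 19 had fewer and 3 had none (*Col10a1*, *Col11a1* and *Col26a1*). The highest was *Col5a3*, the third chain known for type V collagen, with 1274 reads and 6.81 CPM per kb. It was 9.68-fold above *Col5a1* per merged kb and 8.21-fold above it per coding kb, and of the 44 collagen genes only *Col18a1* had a higher level with all 3 lengths. *Col27a1*, a fibrillar collagen best known from cartilage, followed with 1007 reads and 2.82 CPM per kb, above each of the 5 fibrillar members with all 3 lengths. Its longest run of GGN triplets was 217, against 337 in *Col5a3*.

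The transmembrane collagen *Col13a1* had 148 reads and 1.17 CPM per kb. The other collagen genes with at least 10 reads were *Col20a1* at 0.543 CPM per kb, *Col16a1* at 0.421, *Col11a2* at 0.191, *Col7a1* at 0.111, *Col4a5* at 0.107 and *Col12a1* at 0.0759. *Col2a1*, the fibrillar collagen of cartilage, had 0.123 reads per library, and it was named after its value was seen.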
